A study of Mus musculus with 14 samples.

Results

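Hdac1 to Hdac10 encode 10 zinc-dependent histone deacetylases, which are targets of the inhibitor trichostatin A (TSA) or relatives of such targets. They were chosen by name and are 10 of the 20242 named genes measured in 14 cloned mouse embryos. Each embryo was made by somatic cell nuclear transfer (SCNT), in which the nucleus of a cumulus cell is placed in an enucleated oocyte of the B6D2F1 strain, and its RNA was sequenced at the two-cell stage as 1 library per embryo. All embryos, controls included, were activated with strontium in the presence of cytochalasin B. The groups were 3 Control embryos with neither agent, 3 with TSA alone, at 50 nM over the first 8 h from activation (TSA(0-8 h)), and 1 with early VC, which is vitamin C (VC) at 10 µg/ml over the same hours (VC(0-8 h)). Late VC, the same dose of vitamin C from 8 to 15 h (VC(8-15 h)), was given to 2 embryos. The remaining embryos combined the agents, 2 as TSA + early VC and 3 as TSA + late VC. TSA had thus been given to 8 embryos and withheld from 6. A level is given as RPKM, reads divided by the length of the transcript and by the total of reads counted, so that levels of different genes can be set side by side.

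Histone deacetylases remove acetyl groups from lysines, on histones and on other proteins, and loss of histone acetylation is known for closing chromatin to transcription. Hdac1, Hdac2, Hdac3 and Hdac8 form class I, of which all but Hdac8 work inside corepressor complexes in the nucleus. Hdac4, Hdac5, Hdac7 and Hdac9 form class IIa, which shuttle between nucleus and cytoplasm, bind MEF2 factors and 14-3-3 proteins and have little activity of their own on acetylated histones. Hdac6 and Hdac10 form class IIb, of which Hdac6 deacetylates tubulin in the cytoplasm and Hdac10 acts on polyamines. TSA is a hydroxamic acid that binds the zinc ion at the bottom of the catalytic pocket. It is widely used in nuclear transfer, where it is given soon after activation.

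The classes differ in the coding sequence at the pocket itself, and these sequences are shown because that site is where TSA binds. In each gene the translated coding sequence was searched for a leucine, a glycine-rich stretch and then a tyrosine or a histidine, and 12 bases on either side of that last codon are printed 5′ to 3′ on the coding strand, with the codon in capitals.
Hdac1: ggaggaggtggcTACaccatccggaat
Hdac2: ggtggaggaggcTACacaatccggaat
Hdac8: ggaggaggaggcTATaaccttgccaac
Hdac6, first domain: ctggagggtggcTATaacctccgtgcc
Hdac6, second domain: ctagagggtggaTACaatttggcatct
Hdac10: ttggagggtggcTACcacttggagtcc
Hdac4: cttgagggaggcCATgacctgacagcc
Hdac5: ctggagggaggcCATgacttgaccgcc
Hdac7: ttagagggtggaCATgacctcacggcc
Hdac9: ctggaaggaggaCATgatctgacagct
The class I and class IIb genes shown held a tyrosine codon, TAC or TAT, at this place, and Hdac6 held it once in each of its catalytic domains. The class IIa genes all held the histidine codon CAT. In Hdac9 and in Hdac10 only 1 of the 3 coding models of the annotation reached this site. It was 2 of 3 in Hdac2 and in Hdac4, 5 of 9 in Hdac5, 3 of 5 in Hdac6 and 10 of 13 in Hdac7. The sequences come from GENCODE vM1 transcripts on NCBIM37, which is the mm9 build of the deposited values.

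Between 3021540 and 13589389 reads were counted per embryo, and between 3130 and 6231 genes reached 1 RPKM. A count of 3 reads on a transcript of 1 kb corresponded to between 0.221 and 0.993 RPKM, depending on the depth of the library, which covers counting error only and not loss of RNA before sequencing. The library identifiers placed 5 embryos in sequencing pool 1, 6 in pool 2 and 3 in pool 3, and same-numbered Control, TSA alone and TSA + late VC embryos shared a pool. Detection was patchy for most genes, since 4.17% of named genes reached 1 RPKM in all 14 embryos and 44.69% in none. For 4372 of the 20242 named genes at least 7 embryos reached this level. Of the oocyte and maternal markers, 10 of 13 reached 1 RPKM in at least 7 embryos, led by the oocyte factors Bmp15 at a median of 253 RPKM and Oog1 at 132 RPKM. Of the 14 two-cell markers found in the files (16 listed) it was 8, led by Zfp352 at 71.7 RPKM and Obox3 at 62.1 RPKM. The two-cell markers summed to between 216 and 856 RPKM in embryos with TSA and between 9.08 and 1289 RPKM without it. Of the 12 markers of the cumulus donor cells, 0 reached 1 RPKM in at least 7 embryos, although Vcan, a matrix proteoglycan of cumulus cells, was at 69.0 RPKM in 1 embryo and Has2, a hyaluronan synthase, at 1.82 RPKM in 1. The cumulus markers summed to between 0 and 69.0 RPKM with TSA and between 0 and 1.55 RPKM without it. In a whole embryo a level cannot be split between its blastomeres, so that fewer expressing cells and less RNA per cell cannot be told apart.

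Among the deacetylases, 3 of 10 reached 1 RPKM in at least 7 of the 14 embryos, namely Hdac1 in 13, Hdac2 in 11 and Hdac6 in 9. At least as many embryos reached 1 RPKM for 6.76%, 11.32% and 16.12% of all named genes, respectively. Over all named genes, 4372 of 20242 reached 1 RPKM in at least 7 embryos. Hdac10 reached this level in 5 embryos, Hdac9 in 3, and Hdac3 and Hdac5 in 1 each. Hdac4, Hdac7 and Hdac8 stayed below 1 RPKM in every embryo, although each had at least 1 read somewhere. Hdac11, the remaining zinc-dependent relative, had no read in any embryo.

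**Figure D1:**
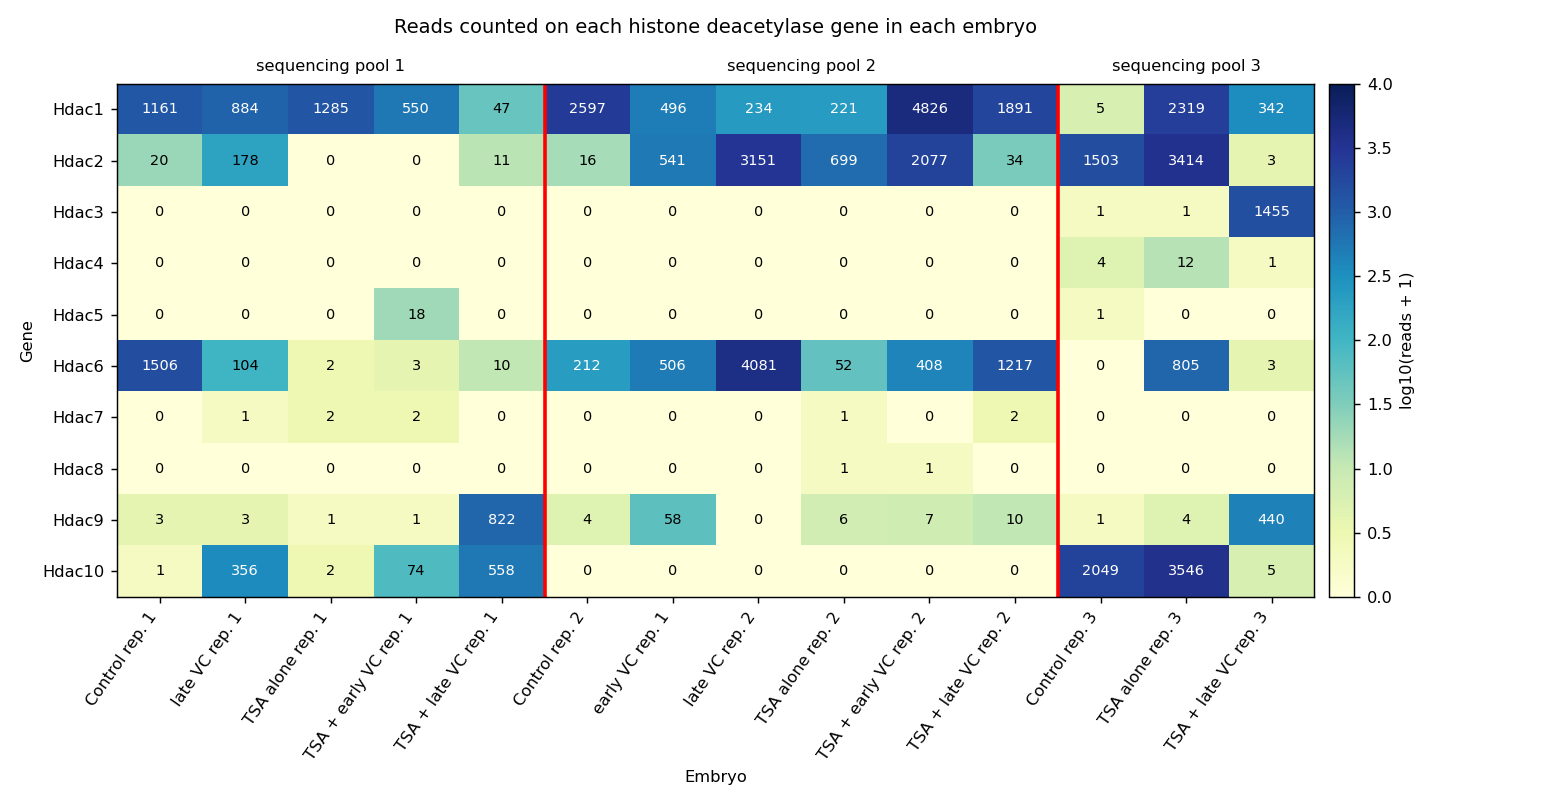
Heat map of the reads counted on each gene (rows) in each embryo (columns, grouped by sequencing pool, with red lines between pools); colour is log10(reads + 1) and the number in each cell is the read count. Hdac1 has reads in all 14 embryos, Hdac10 has none in the 6 embryos of pool 2, and Hdac3 and Hdac4 have reads only in pool 3.

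Hdac1, the catalytic subunit of several nuclear corepressors, lies at chr4:129193348-129219957 on the minus strand, with the printed codon in exon 9 of 14. Its level in the Control embryos was 109, 192 and 0.187 RPKM. The TSA alone embryos had 216, 14.3 and 100.1 RPKM, and the TSA + late VC embryos had 5.49, 123 and 14.1 RPKM. These groups overlapped throughout, and the lowest and the second highest of all 14 values were both Control embryos. The late VC embryos had 45.5 and 18.1 RPKM, the early VC embryo 59.1 RPKM and the TSA + early VC embryos 85.5 and 187 RPKM. Control replicate 3, with 5 reads on Hdac1 among 13589389, was the deepest library of all.

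The level of Hdac1 carries an uncertainty that the other members do not. A processed copy of the gene, Gm10093, lies at chr17:78890905-78892881 on the plus strand, where GENCODE vM1 lists it as protein-coding and RefSeq as the pseudogene Hdac1-ps. Of the 1989 windows of 50 bases, the read length, in the Hdac1 transcript, 1516 (76.2%) were identical in sequence outside the Hdac1 gene, with the aligned bases mostly on chromosome 17. Allowing 2 mismatches, the share was 96.6%. For Hdac2, Hdac3, Hdac4, Hdac6, Hdac7, Hdac8 and Hdac10 it was 0 windows even with 2 mismatches, and for Hdac5 and Hdac9 it was 1 window each. The step of 1 read gave the counted length of the Hdac1 entry as 1971 bases, close to the 1977 bases of the copy and to the 2038 bases of the annotated transcript. How the mapping placed reads that fit both loci is not given in the sources used here, so reads of the gene and of its copy cannot be told apart.

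Hdac2, the close relative of Hdac1 in the same complexes, lies at chr10:36694350-36721695 on the plus strand. It was at 1.84, 1.16 and 55.2 RPKM in Control embryos and at 0, 44.6 and 145 RPKM in TSA alone embryos. The TSA + late VC embryos had 1.26, 2.18 and 0.122 RPKM, all below the Control embryo of pool 3 but overlapping the other two. The highest level of any member in any embryo, 239 RPKM, was that of Hdac2 in late VC replicate 2, against 9.01 RPKM in replicate 1. The early VC embryo had 63.4 RPKM and the TSA + early VC embryos 0 and 79.1 RPKM. Both embryos without a read of Hdac2 were in pool 1 and were the shallowest libraries.

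Hdac3, the deacetylase of the NCoR/SMRT corepressor, reached 1 RPKM in a single embryo. It had 1455 reads, or 59.1 RPKM, in TSA + late VC replicate 3, where it was the highest member. It had 1 read each in Control replicate 3 and TSA alone replicate 3, which shared the pool of that embryo, and 0 reads in the other 11. Hdac8, the class I enzyme that deacetylates cohesin (chrX:99479978-99700698, minus strand), had 1 read in TSA alone replicate 2 and 1 in TSA + early VC replicate 2, and none elsewhere.

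Of class IIb, Hdac6 (chrX:7507246-7525015, minus strand) was at 68.3, 7.59 and 0 RPKM in Control embryos and at 0.163, 1.64 and 16.8 RPKM with TSA alone. With TSA + late VC it was at 0.566, 38.5 and 0.299 RPKM. The late VC embryos had 2.59 and 153 RPKM, the early VC embryo 29.2 RPKM and the TSA + early VC embryos 0.226 and 7.66 RPKM. The embryo highest for Hdac6 was also the one highest for Hdac2. Its groups overlapped, with a Control embryo at 0 and another above all embryos with TSA.

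Hdac10 (chr15:88953733-88959130, minus strand) was seen in pools 1 and 3 and not in pool 2. It was at 62.4 RPKM in Control replicate 3 and at 125 RPKM in TSA alone replicate 3, both of pool 3, and at 0.169 RPKM in the other embryo of that pool, TSA + late VC replicate 3. In pool 1 it was at 0.0763 RPKM in the Control embryo, 0.274 RPKM with TSA alone, 9.39 RPKM with TSA + early VC, 14.9 RPKM with late VC and 53.2 RPKM with TSA + late VC. All 6 embryos of pool 2, from all 6 treatments, had 0 reads of Hdac10.

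The class IIa genes were low. Hdac4 (chr1:93829334-94044970, minus strand) had 4, 12 and 1 reads in Control, TSA alone and TSA + late VC replicate 3, the embryos of pool 3, and none elsewhere. Hdac5 (chr11:102055746-102091480, minus strand) had 18 reads in TSA + early VC replicate 1, or 1.45 RPKM, and 1 read in Control replicate 3. Hdac7 (chr15:97623095-97674933, minus strand) had 1 or 2 reads in each of 5 embryos. The 2 reads behind its highest level, 0.456 RPKM in TSA alone replicate 1, are a minimum, because 1 of its entries was seen in that embryo only.

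Hdac9, the class IIa gene with the longest locus (chr12:34732451-35213754, minus strand), was the exception within its class. It was at 59.6 RPKM in TSA + late VC replicate 1, where it was the highest member, and at 11.6 RPKM in replicate 3 of that group. In replicate 2 it was at 0.183 RPKM, from 10 reads, in the pool of the early VC embryo with 58 reads. The Control embryos had 0.0675, 0.0711 and 0.009 RPKM, from 3, 4 and 1 reads, and the TSA alone embryos 0.108, 0.25 and 0.0588 RPKM. Every TSA + late VC embryo was thus above every Control embryo, which was so for 1 of the 9 members with reads there and for 5.14% of 13414 named genes, with 0 members and 2.36% of genes in the opposite direction. In TSA alone against Control 0 members were apart, beside 1.87% of genes higher and 3.96% lower, and in TSA + late VC against TSA alone 0 members, beside 6.12% and 1.25%. For Hdac9 the two-sided exact permutation test against Control gave p = 0.1, the smallest that 3 against 3 embryos allow. Outside this group, the early VC embryo had 1.66 RPKM, the late VC embryos 0.0371 and 0 RPKM and the TSA + early VC embryos 0.0374 and 0.0652 RPKM. Of the 1360 reads of Hdac9, 1228 fell on the shorter of its 2 entries, NM_024124 of 3074 bases, and 132 on NM_001271386 of 8195 bases. Only 1 of the 3 coding models of Hdac9 reached the printed codon, and whether either entry does was not examined. Its level is thus not a level of transcripts known to hold that site. The entries of the other members were not examined for it either.

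**Figure D2:**
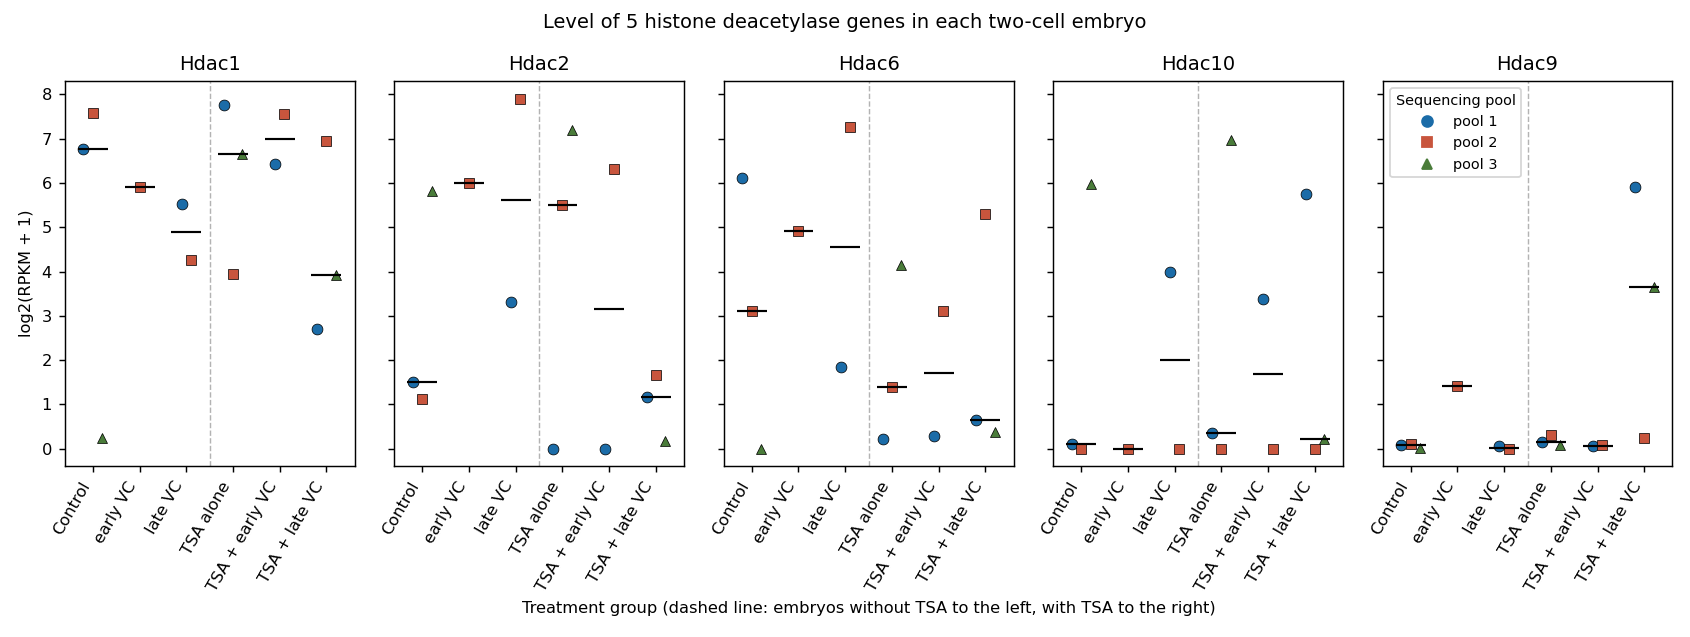
Levels of the 5 members that reached 1 RPKM in at least 3 embryos, as log2(RPKM + 1), by treatment group; each point is 1 embryo, its shape and colour give the sequencing pool and the bar is the group's median. The 3 Control points spread over several log2 units for Hdac1, Hdac2 and Hdac6, and the 6 points of pool 2 lie at 0 for Hdac10.

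Few deacetylases reached 1 RPKM in the same embryo. Between 1 and 4 members did so per embryo, and the summed level of all 10 ranged from 61.0 to 410 RPKM with a median of 159 RPKM. The most abundant member was Hdac1 in 7 embryos, Hdac2 in 4, and Hdac3, Hdac9 and Hdac10 in 1 each. The level of Hdac1 in these sums and ranks may include reads of its copy, Gm10093. In TSA alone replicate 1, Hdac1 made up 99.5% of the sum, and in TSA alone replicate 3 the leading member, Hdac2, made up 37.4%. In TSA + late VC replicate 1, Hdac1 and Hdac2 together had 6.75 RPKM, and Hdac9 and Hdac10 led instead.

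The order of the median levels was Hdac1 at 72.3 RPKM, Hdac2 at 5.59, Hdac6 at 5.09, Hdac10 at 0.122 and Hdac9 at 0.0693 RPKM, with the medians of the other members at 0. Neighbours in this order were compared within embryos with a two-sided exact permutation test of sign flips, over 9 neighbouring pairs. The order came from the same values, and the p-values are not adjusted for the 9 pairs or for the embryos left out. The level of Hdac1 may include reads of its copy. Hdac1 was above Hdac2 in 9 of 14 embryos, by 2.04 on the log2(RPKM + 1) scale, which did not exceed the spread between embryos (exact p = 0.082). Without Control replicate 3 the same difference was 2.62 (exact p = 0.0232), and without late VC replicate 2 it was 2.48 (exact p = 0.0408). Hdac2 was above Hdac6 in 8 of 14 embryos (exact p = 0.416) and Hdac6 above Hdac10 in 8 of 14 (exact p = 0.456). The p-values of the remaining 6 neighbouring pairs ran from 0.223, for Hdac10 over Hdac9, to 0.969, for Hdac5 over Hdac7, in the same exact permutation test. Hdac9 over Hdac3 was at 0.441 (exact p = 0.472), and at 0.648 (exact p = 0.00146) without TSA + late VC replicate 3, the only embryo with more than 1 read of Hdac3. With that embryo left out Hdac3 had next to no reads to compare, so no conclusion on the order is drawn from this p-value.

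Across the 14 embryos, Spearman's rho between Hdac1 and Hdac2 was -0.20, between Hdac2 and Hdac6 0.55 and between Hdac6 and Hdac10 -0.53. These are descriptions over 14 libraries that share pools and differ in depth. The genes whose pattern over the 14 embryos was most like that of Hdac1, among 4371 compared, were Mrpl51 (rho = 0.83), Spred2 (0.81), Brpf1 (0.77), Pdgfa (0.75) and Larp7 (0.74). Those most like Hdac2 were Pwwp2a (rho = 0.82), Gm5662 (0.80), Zmynd19 (0.80), 2610524H06Rik (0.79) and Rab3d (0.78). These are the highest of 4371 values over only 14 embryos, and the highest of so many can be large by selection alone. None was tested, and the pattern of Hdac1 may include reads of its copy.

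The treatment comparisons asked whether transcripts of these targets of TSA and their relatives differed in embryos exposed to TSA, with or without vitamin C. No member passed the test in any of the 7 comparisons made. Differences are given on the log2(RPKM + 1) scale, as the first group minus the second, with limma and Benjamini-Hochberg adjustment over all genes tested. Hdac3, Hdac4, Hdac5, Hdac7 and Hdac8 were too low to be tested in any comparison, and Hdac9 and Hdac10 in those of 3 against 3 embryos. Between embryos of 1 group, the SD of the median gene was 2.11 to 2.34 in the 3 comparisons of 3 against 3.

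TSA alone was set against Control in 3 embryos each. Of the 3 members that could be tested there, 0 were called, against 0.121% of the 4132 genes tested. Hdac1 differed by 1.25 (95% confidence interval -2.20 to 4.69, limma adjusted p = 0.952), Hdac2 by 1.42 (-3.43 to 6.27, adjusted p = 0.973) and Hdac6 by -1.15 (-5.58 to 3.29, adjusted p = 0.976). At an unadjusted p under 0.05 the count was 234 genes (5.66%) and 0 members, and the median gene differed by -0.38. Without Control replicate 3 the difference of Hdac1 was -1.06, so that its direction rested on that embryo. The difference of Hdac2 was -0.054 without TSA alone replicate 3, and that of Hdac6 was 0.37 without Control replicate 1.

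TSA + late VC against Control gave 0 members called of 3 tested, against 0.0% of 5026 genes. Here Hdac1 differed by -0.35 (-4.07 to 3.37, limma adjusted p = 0.974), Hdac2 by -1.80 (-5.29 to 1.68, adjusted p = 0.828) and Hdac6 by -0.96 (-5.33 to 3.40, adjusted p = 0.933), while the median gene differed by 0.54. At an unadjusted p under 0.05 the count was 439 genes (8.73%) and 0 members. Leaving out 1 embryo at a time gave -2.66 to 1.01 for Hdac1, the ends being without Control replicate 3 and without Control replicate 2. It gave -2.65 to -0.305 for Hdac2, nearest 0 without Control replicate 3. For Hdac6 it gave -2.50 to -0.097, nearest 0 without TSA + late VC replicate 3. Hdac6 was too low to be tested without Control replicate 1, Control replicate 2 or TSA + late VC replicate 2. Its range leaves those fits out.

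TSA + late VC against TSA alone gave the largest estimate for a member, which did not pass the test. Hdac2 differed by -3.23 (-7.59 to 1.13, limma adjusted p = 0.68), with embryos of both groups overlapping. Without TSA alone replicate 3 the difference was -1.75, and without TSA alone replicate 1 it was -5.35. Hdac1 differed by -1.59 (-5.03 to 1.85, adjusted p = 0.808) and Hdac6 by 0.18 (-3.51 to 3.88, adjusted p = 0.987). Of the 4642 genes tested, 0.0% were called and 395 (8.51%) had an unadjusted p under 0.05, with 0 members in either count. The median gene differed by 0.89.

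With all 14 embryos in one fit, 8 with TSA were compared with 6 without, with the vitamin C window as a further term. Of the 5 members tested 0 were called, against 0.0% of 7600 genes, and 361 genes (4.75%) but 0 members had an unadjusted p under 0.05. Hdac1 differed by 0.64 (-1.57 to 2.85) and Hdac10 by 0.52 (-2.25 to 3.28), each at a limma adjusted p of 1. Hdac2 differed by -1.57 (-4.46 to 1.32, adjusted p = 0.993), Hdac6 by -2.02 (-4.87 to 0.83, adjusted p = 0.985) and Hdac9 by 0.94 (-0.76 to 2.65, adjusted p = 0.993). Without late VC replicate 2 the difference of Hdac2 was -0.515 and that of Hdac6 was -1.26. Changes of several fold in either direction lay inside the intervals of Hdac1 and Hdac10. The two-sided exact permutation test of 8 against 6 embryos, run on all 10 members, gave p-values of 0.1465 to 1. In none of the 10 was every embryo with TSA above or below every embryo without, as was so in one direction or the other for 0.00651% and 0.0261% of named genes.

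**Figure D3:**
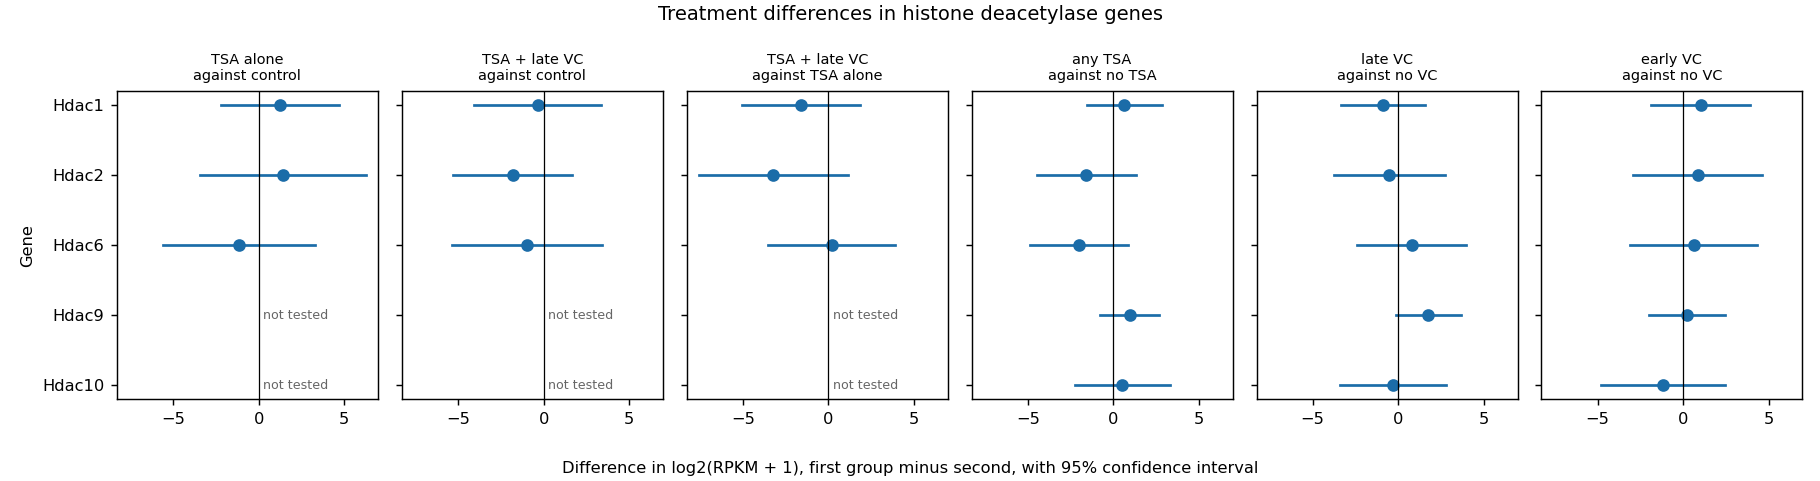
Differences of 5 members in log2(RPKM + 1), first group minus second, in 6 comparisons; points are the limma estimates, lines their 95% confidence intervals, and members at 1 RPKM or more in fewer than 3 embryos of a comparison are marked as not tested. Every interval crosses 0, and the lowest estimate is that of Hdac2 at -3.23 in TSA + late VC against TSA alone.

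In the same fit, late VC was compared in 5 embryos with 6 that had no vitamin C. Again 0 of 5 members were called, against 0.0132% of 7600 genes, and 0 were among the 6.64% with an unadjusted p under 0.05. The nearest was Hdac9, which differed by 1.75 (-0.14 to 3.65, limma adjusted p = 0.764). It rested on 2 embryos of 5 above 1 RPKM, both with TSA as well. Hdac1 differed by -0.89 (-3.35 to 1.57), Hdac2 by -0.52 (-3.74 to 2.71), Hdac6 by 0.79 (-2.38 to 3.97) and Hdac10 by -0.29 (-3.38 to 2.80), at limma adjusted p-values of 0.944 to 0.985. For early VC, in 3 embryos, 0 of 5 members were called against 0.0% of 7600 genes, and 0 were among the 7.08% with an unadjusted p under 0.05, with limma adjusted p-values of 0.919 to 0.983. Hdac1 differed by 1.03 (-1.85 to 3.92), Hdac2 by 0.85 (-2.93 to 4.63), Hdac6 by 0.61 (-3.11 to 4.34), Hdac9 by 0.23 (-1.99 to 2.46) and Hdac10 by -1.20 (-4.82 to 2.42). The test for any difference among the 6 groups called 0 of 5 members and 0.0% of 7600 genes, and 0 members were among the 4.7% with an unadjusted p under 0.05, with limma adjusted p-values of 0.973 to 0.998 for the members.

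The differences with TSA did not keep 1 direction within the sequencing pools. Hdac1 differed between embryos with and without TSA by -0.53 in pool 1, 0.23 in pool 2 and 5.04 in pool 3, where the only embryo without TSA was Control replicate 3. Hdac6 differed by -3.59, -1.82 and 2.27, Hdac9 by 1.97, -0.28 and 1.86 and Hdac10 by 1.11, 0 and -2.39 in the same order. Hdac2 alone among these 5 was lower with TSA in each pool, by -2.02, -0.51 and -2.13. Vitamin C was not held in these differences. Between TSA alone and Control, Hdac2 was at 0 and 1.84 RPKM in pool 1. It was at 44.6 and 1.16 RPKM in pool 2 and at 145 and 55.2 RPKM in pool 3, higher with TSA alone in both. The pools held 3, 3 and 2 embryos with TSA and 2, 3 and 1 without, and these values carry no test.

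Several of the lowest read counts stood beside a pool mate with many reads. Hdac3 had single reads in both pool mates of the embryo with 1455, Hdac9 had 1 or 3 reads in the 4 pool mates of the embryo with 822, and Hdac10 had 1 and 2 reads in pool 1 beside an embryo with 558. In pool 3, Hdac1 had 5 reads in Control replicate 3 beside an embryo with 2319. TSA + late VC replicate 3 had 3 reads of Hdac2 beside 3414 and 5 of Hdac10 beside 3546. Hdac6 had 2 and 3 reads in pool 1 beside 1506, and at least 3 in pool 3 beside 805. Hdac9 had 1 and 4 reads in pool 3 beside 440. Some other low counts had no such pool mate. The pool mates of the embryo with 1 read of Hdac5 were at 0, and those of the embryos with 1 or 2 reads of Hdac7 or Hdac8 had 2 reads or fewer. A count over all named genes, chosen after these values were seen, took the 889 genes with at least 500 reads in 1 embryo and under 50 in each of the others. Their other embryos had 1 read or more in 66.8% of 3360 cases within the same pool and in 18.7% of 8197 cases in other pools. The part of this in the low counts of Hdac1, Hdac2, Hdac3, Hdac6, Hdac9 and Hdac10 was not tested.

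**Figure D4:**
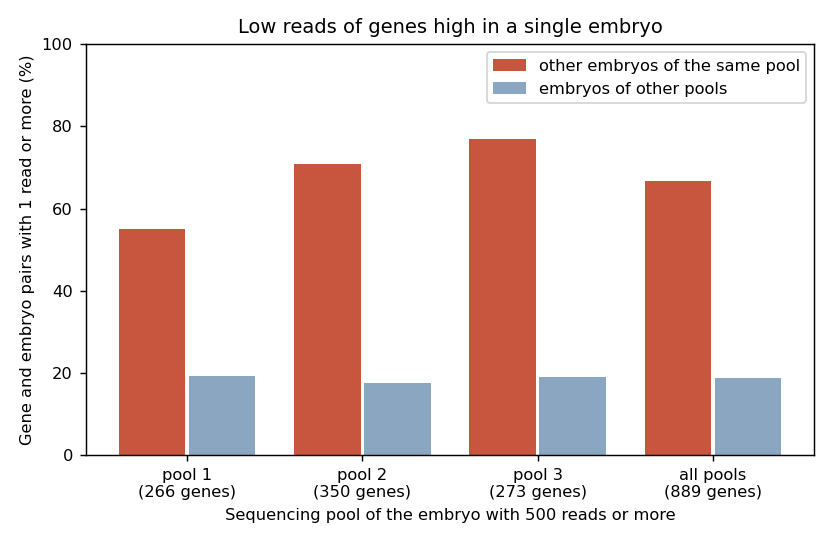
For the 889 genes with at least 500 reads in a single embryo and under 50 in every other, bars give the percentage of gene and embryo pairs with 1 read or more, in the other embryos of the same sequencing pool and in embryos of other pools. The share is 54.9%, 70.9% and 76.9% within pools 1, 2 and 3 and 17.6% to 19.3% across pools.

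The known partners of these enzymes were examined in the same way. Of 66 genes in 8 lists of partners and relatives of other classes, with Hdac11 as a ninth, 36 reached 1 RPKM in at least 7 embryos. Over all named genes it was 4372 of 20242. In NuRD, the nucleosome remodelling complex of Hdac1 and Hdac2, it was 8 of 11, led by Gatad2a at a median of 177 RPKM (55.2 to 380) and Mta2 at 152 RPKM (2.69 to 303). In the Sin3 corepressor it was 10 of 13, led by the scaffold Sin3a at 388 RPKM (23.8 to 2687) and Ing1, a reader of histone methylation, at 74.9 RPKM. In CoREST it was 3 of 8, with Rcor1 at 44.5 RPKM and Rcor2 at 17.5 RPKM. In NCoR/SMRT, the complex of Hdac3, it was 2 of 5, with the corepressor Ncor1 at 92.9 RPKM and Tbl1xr1 at 12.6 RPKM. In MiDAC, the mitotic deacetylase complex, it was 0 of 3, with Dnttip1 at a median of 0.384 RPKM and Trerf1 at 0.152 RPKM.

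Of the MEF2 and 14-3-3 partners of class IIa, 6 of 11 reached this level, led by the 14-3-3 genes Ywhaz at 107 RPKM and Ywhae at 86.9 RPKM. Of the class IIb list it was 6 of 7, led by the chaperones Hsp90ab1 at 230 RPKM and Hsp90aa1 at 179 RPKM, known substrates of Hdac6. Of the sirtuins, NAD-dependent deacetylases that TSA does not inhibit, it was 1 of 7, Sirt1, at 96.7 RPKM (0.678 to 418), while Sirt7 had a median of 0.082 RPKM. No gene of these lists was called in any of the 7 comparisons. At an unadjusted limma p under 0.05 the count was 3 of 39 tested (7.69%) in TSA + late VC against Control, beside 8.73% of all genes, 1 of 34 (2.94%) in TSA alone against Control, beside 5.66%, and 4 of 40 (10.0%) in TSA + late VC against TSA alone, beside 8.51%. In the fit of 14 embryos it was 3 of 52 (5.77%) for TSA, beside 4.75%, 6 (11.5%) for late VC, beside 6.64%, 5 (9.62%) for early VC, beside 7.08%, and 7 (13.5%) for any difference among the 6 groups, beside 4.7%.

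**Figure D5:**
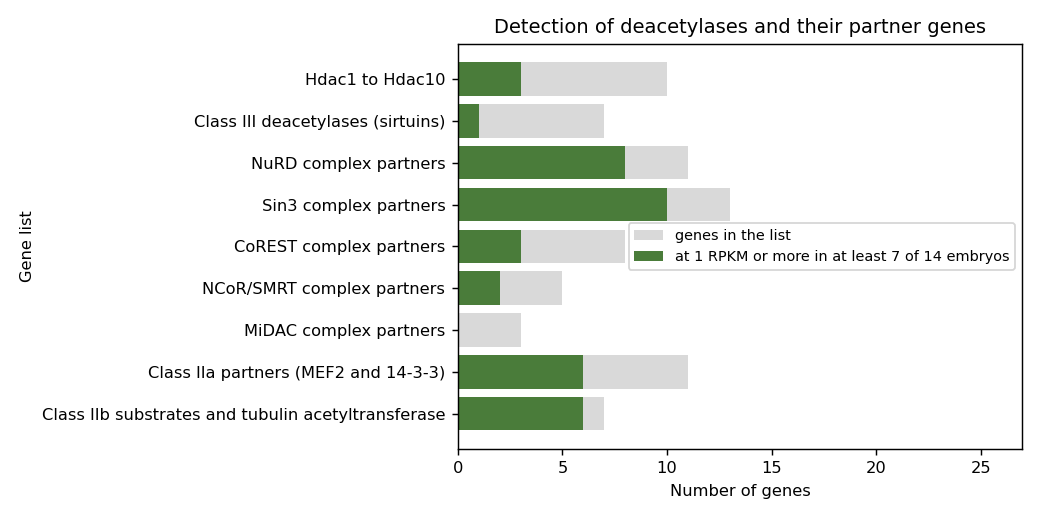
Number of genes in each list (grey bars) and number at 1 RPKM or more in at least 7 of the 14 embryos (green bars). Of Hdac1 to Hdac10, 3 of 10 pass, against 8 of 11 NuRD partners, 10 of 13 Sin3 partners and 1 of 7 sirtuins. Over all named genes, 4372 of 20242 pass.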

How the data were processed

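Total RNA of single embryos was amplified and sequenced by the authors as single-end reads. The authors removed low-quality reads and adaptors (cutadapt), mapped the reads to mm9 with TopHat (TopHat2 in the submitters' processing notes), counted reads on UCSC exons and deposited RPKM values, that is reads divided by transcript length and by the total counted. Whole reads were recovered from the steps of these values: all 14532 entries seen in 2 or more embryos came out as whole numbers (tolerance 0.0001), 99.92% to 100% of the reads of each library. RefSeq entries of a gene were summed, and 25250 of 25650 entries had a symbol.

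Genes at 1 RPKM or more in at least 3 embryos of a fit, whatever their group, were tested with limma (version 3.58.1, R 4.3.3) on log2(RPKM + 1), with a trend and Benjamini-Hochberg adjustment over all genes tested, at a threshold of 0.05. A fold change on this scale understates that of low genes. Groups and replicate numbers came from the sample labels. Same-numbered embryos of the 3 main groups shared a sequencing pool. The correlation of their deviations from the group means was low, at 0.006 to 0.046, and the block by number was kept as an alternative. It was still higher than with the differently numbered embryos of the second group, except for replicate 2 of TSA + late VC against TSA alone. Over all genes, Spearman's rho between embryos averaged 0.722 (0.663 to 0.762) within a pool and 0.638 (0.598 to 0.697) across pools. The labels do not say whether embryos of a group came from separate experiments. The study's text gives 3 independent rounds of nuclear transfer for TSA + late VC, and for the other groups p-values measure only the spread between these embryos, which may be technical. No libraries were identical. The members, gene lists and tests were chosen with earlier results of these data known. All 10 members are described, those tested with their difference in each comparison except the test over all groups, which has none. Of other lists were named the 2 genes of highest median RPKM and any gene past the threshold in a comparison. Alternatives were another pseudocount, filters, scalings, single entries, no trend, the block, limma-voom on recovered reads, an adjusted p under 0.1 and leaving out each embryo. Chosen after seeing the data were an interaction of TSA and late VC and the count of low reads by pool. The scripts were tested on simulated data. Python 3.11.15 with numpy 2.4.6 and pandas 2.3.3 was used for the rest. Windows of 50 bases were aligned to the genome with blastn. Hdac3 is described without position or sequence.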

Additional observations from a re-analysis of the deposited data

Results flagged for a closer look

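In 19 sets of embryos, with TSA (8 embryos) or without it (6 embryos), the highest or lowest level of a member was tested for its gap to the nearest other embryo, and 9 stood apart. Chance alone gives about 1 in 20 where values follow a normal distribution. In 5 of the 9 every other embryo was at 0, so that any read gave the widest gap and that rate does not apply. The flagged members lay at or near 0 in most embryos, so the rate may not hold for the remaining flags either. All values are log2(RPKM + 1). For Hdac3 with TSA, TSA + late VC replicate 3 was at 5.91 against 0.06 in the next embryo, and without TSA, Control replicate 3 was at 0.052 against 0. For Hdac4, TSA alone replicate 3 was at 0.33 with TSA and Control replicate 3 at 0.10 without it. For Hdac5, TSA + early VC replicate 1 was at 1.29 and Control replicate 3 at 0.028. For Hdac7, TSA alone replicate 1 was at 0.54 and late VC replicate 1 at 0.035, and for Hdac9 without TSA the early VC embryo was at 1.41 against 0.10 in the next. Of these, Hdac3 in TSA + late VC replicate 3 rested on 1455 reads and Hdac9 in the early VC embryo on 58 reads, while the others rested on 1 to 18 reads.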

How the results depend on the processing

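In 151 refits of the 7 comparisons 0 members were called, and the smallest limma adjusted p of a member was 0.481 (Hdac2, TSA + late VC against control, 1 RPKM in every embryo of either group). Of 608 member values 36 changed sign, all between uncalled values, and the cause was not tested. The 608 include adjusted p-values of the test over all groups, which have no sign, so the share among differences is larger. In TSA + late VC against control, Hdac1 was 0.24 with a pseudocount of 0.1 and 1.46 with limma-voom. In TSA alone against control, Hdac6 was 0.61 with limma-voom. In TSA + late VC against TSA alone, Hdac6 was -0.82 with quantile normalization, -0.52 with median-ratio scaling and -0.85 with limma-voom. For late VC, Hdac6 was -0.26 with quantile normalization. For early VC, quantile normalization gave -0.94 for Hdac6 and -0.37 for Hdac9, and median-ratio scaling -0.014 for Hdac1, -0.20 for Hdac6 and -0.008 for Hdac9. These scalings brought the median difference of all genes from between -0.38 and 0.89 to between -0.09 and 0.12. With the replicate block by sequencing pool, Hdac10 was -0.14 for any TSA, 0.20 for late VC and 0.43 for early VC, and Hdac6 -0.28 for early VC. The replicate block changed no call of a member, and called 7 and 8 genes in place of 0 in TSA + late VC against control and against TSA alone. Within pools the difference with TSA changed sign for Hdac1 (-0.53, pool 1), Hdac6 (2.27, pool 3), Hdac9 (-0.28, pool 2) and Hdac10 (-2.39, pool 3).

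Leaving out each embryo gave, in TSA + late VC against control, -2.66 to 1.01 for Hdac1. In TSA alone against control it gave -1.06 to 2.61 for Hdac1, -0.054 to 3.54 for Hdac2 and -2.68 to 0.37 for Hdac6. In TSA + late VC against TSA alone, Hdac6 could not be tested without TSA alone replicate 2 or 3 or TSA + late VC replicate 2. Leaving out each of the other embryos there gave -0.67 to 1.05 for Hdac6. For any TSA it gave -0.33 to 1.11 for Hdac1 and -0.36 to 1.30 for Hdac10. For late VC it gave -1.81 to 0.55 for Hdac2, -0.14 to 1.56 for Hdac6 and -1.18 to 0.78 for Hdac10, and for early VC -0.52 to 2.64 for Hdac2 and -0.043 to 1.52 for Hdac6. In the order of levels it gave 1.598 to 2.623 for Hdac1 over Hdac2, 0.019 to 0.65 for Hdac9 over Hdac3 (0.648, exact permutation p = 0.00146, without TSA + late VC replicate 3), -0.093 to 0.46 for Hdac3 over Hdac5, -0.053 to 0.073 for Hdac5 over Hdac7, -0.007 to 0.06 for Hdac7 over Hdac4 and -0.002 to 0.031 for Hdac4 over Hdac8. With a pseudocount of 0.1, Hdac9 over Hdac3 was 1.31 (exact permutation p = 0.0483) and Hdac5 over Hdac7 was -0.072. These p-values are not adjusted. Without TSA + late VC replicate 3, Hdac3 had at most 1 read in any embryo.

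Over all genes, calls in place of 0, 5, 0, 0, 1, 0 and 0, in the order of the 7 comparisons (TSA + late VC against control, TSA alone against control, TSA + late VC against TSA alone, any TSA, late VC, early VC, all groups), ranged from 0 to 10, 0 to 9, 0 to 8, 0 to 2, 0 to 5, 0 to 3 and 0 to 10, and were 642 for all groups without a filter, where 1 group holds 1 embryo. Levels that rest on 3 reads or fewer are at the floor of these libraries.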

Other observations

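Over the 11 embryos without early vitamin C, the difference made by TSA was compared between embryos with and without late VC, a test chosen after the data were seen. The interaction of Hdac2 was -6.03 on the log2(RPKM + 1) scale (95% confidence interval -12.6 to 0.52, limma adjusted p = 0.892). That of Hdac1 was -1.62 (-6.91 to 3.67, adjusted p = 0.971), that of Hdac6 -1.30 (-7.99 to 5.39, adjusted p = 0.972) and that of Hdac10 -0.41 (-6.91 to 6.08, adjusted p = 0.998). Of 6620 genes tested, 0 were called in limma.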
